A study of Homo sapiens with 10 samples.

Results

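The baseline expression profile of untreated NK-92 cells was described from 2 of the 10 libraries of the series, those that the labels give as 0 h cells with no treatment. Both untreated libraries were taken, and no library was chosen by its values. NK-92 is an established human line from a natural killer (NK) cell lymphoma, and all libraries come from this 1 line. The other 8 libraries hold 2 each of cells given 500 µM deferoxamine (DFO, a small molecule that binds iron) for 6 h, 10 µg/mL PPMX-T003 (an antibody against transferrin receptor 1) for 6 h, 500 µM DFO for 24 h and 10 µg/mL PPMX-T003 for 24 h. They enter here only to say whether a gene that was on or off at 0 h stayed on the same side of the threshold. Per the labels' protocols, all cells shared Artemis Medium-1, 2% human serum, 37 °C and 5% CO2. RNA with poly(A) tails was extracted with Qiazol, made into libraries with the TruSeq Standard mRNA kit and read on a NovaSeq-6000 as pairs of 101 bp. No label says that the 2 untreated libraries came from separate cultures, so their spread may be technical.

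NK cells are lymphocytes that kill infected or transformed cells without a rearranged antigen receptor. They read a balance of activating and inhibitory surface receptors that recognise class I MHC molecules and stress ligands on the target, and they kill by releasing granules of perforin and granzymes. NK-92 is widely used as a killer cell line and is known to grow in the presence of interleukin 2, which signals through JAK kinases and STAT5. Growing lymphocytes import iron mainly as transferrin bound to transferrin receptor 1, keep it in ferritin and use it in haem and iron-sulfur clusters.

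The 2 libraries held 143575614 estimated counts (replicate 1) and 127973693 (replicate 2), with at least 1 count at 24330 and 23983 symbols. Levels are given as CPM, the count scaled to a library total of 1000000, so 1 CPM stood for 143.6 and 128.0 counts. A count of 3, the floor set for a listed 0, stood for 0.0209 and 0.0234 CPM. This floor covers counting error only and is not a hard limit on the true level. For some comparisons between genes TPM is given, which divides each count by transcript length before the same scaling. Values set side by side in CPM alone, and the order by mean CPM in the figures, are not corrected for length. Families of genes with basic cell functions, chosen after the data were seen, were detected. At 1 CPM or more were all 31 small ribosomal subunit proteins, 29 RNA polymerase subunits, 8 chaperonin CCT subunits (lowest mean 1.19 CPM), 36 subunits of respiratory complex I and 12 Sm proteins. The mitochondrial chromosome is the exception. Each of its 37 genes is at 0 in both libraries, whereas pseudogene copies in the nucleus took 1.29% and 1.25% of the counts, so nothing is said of mitochondrially encoded transcripts.

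A gene is called expressed where its mean over the 2 libraries was 1 CPM or more, and silent under that. Of 54628 symbols, 12501 (22.9%) were expressed, and of 19509 protein-coding genes, 10361 (53.1%) were. Against these shares, 542 of 961 members of 37 gene lists were expressed (56.4%), and 419 were silent, 225 of them with 0 counts in both libraries. The members' share was thus close to that of all protein-coding genes, and the lists differ mainly among themselves. By theme, 89 of 205 lineage genes, 172 of 291 receptor and signalling genes, 93 of 188 effector genes, 161 of 232 metabolic genes and 61 of 102 iron genes were expressed. The lists at the ends of the range were granule release machinery, with all 19 members expressed, and non-haematopoietic genes, with 2 of 22. At the higher level of 100 CPM, reached by 12.8% of protein-coding genes, stood 213 members. A listed 0 in both libraries was found for 28.8% of protein-coding genes. The 419 silent members, and the 225 with 0 counts, include 9 killer and leukocyte immunoglobulin-like receptor genes that the RefSeq annotation places on alternative haplotype sequences alone, so for these the 0 may not mean silence and is not described further.

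**Figure D1:**
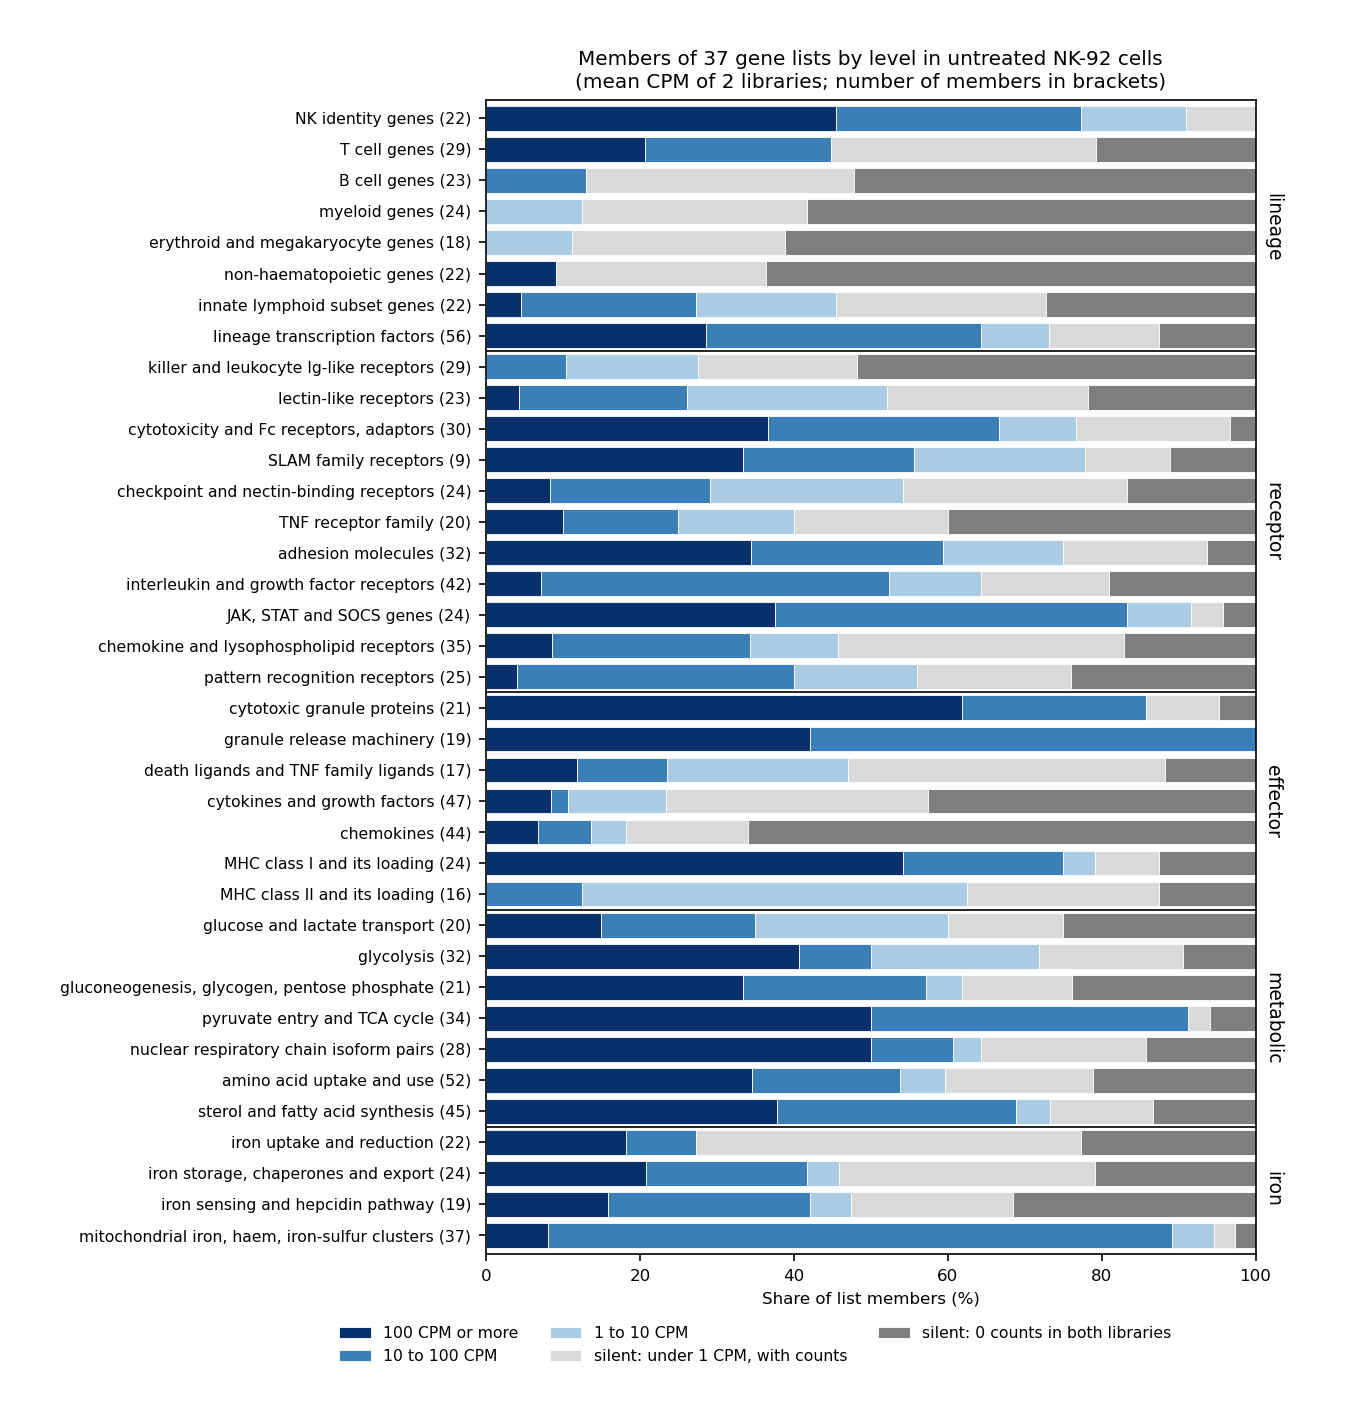
Share of the members of each of 37 gene lists (rows, grouped by theme) in 5 level classes, by mean CPM of the 2 untreated libraries. Blue bars are expressed members, 1 CPM or more, and grey bars are silent members. Blue fills the whole bar of granule release machinery and nearly the whole bar of the list on mitochondrial iron, haem and iron-sulfur clusters (35 of 37), whereas grey fills most of the bars of chemokines (8 of 44 expressed) and of the B cell, myeloid, erythroid and non-haematopoietic lists.

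The threshold cut through few members. Only 23 of the 961 lay between 1 and 2 CPM and 24 between 0.5 and 1 CPM. Just inside it were KIR3DL1, an inhibitory killer immunoglobulin-like receptor, at 1.16 and 0.844 CPM, FCER1G, the Fc receptor gamma chain, at 0.898 and 1.12 CPM, and HLA-DPB1, a class II MHC chain, at 1.12 and 1.02 CPM. Just outside it were SERPINB6, a protease inhibitor, at 0.954 and 1.03 CPM, PAX5, a B cell transcription factor, at 0.578 and 1.39 CPM, and CLEC7A, a receptor for fungal glucan, at 1.20 and 0.742 CPM. In 6 members, namely KIR3DL1, FCER1G, SERPINB6, PAX5, CLEC7A and GP1BA, the 2 libraries fell on either side of 1 CPM.

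The DNA just before the start of a gene comes in 2 broad kinds in vertebrates, rich or poor in the dinucleotide CG. Windows of 250 bases before the RefSeq start (GRCh38.p14) were therefore classed as CpG-rich where CG reached 0.6 of its expected frequency with at least 50% G and C, taking a gene as rich if any of its listed starts was. A window was at hand for 15325 of 19509 protein-coding genes. Among these, 7242 of 10198 genes with a rich window were expressed (71.0%), against 1331 of 5127 with a poor window (26.0%). Metabolic members followed the same order, with 121 of 146 expressed for rich and 13 of 42 for poor windows, and among iron genes 49 of 69 rich and 1 of 14 poor were expressed. The shares lay closer together for lineage members, with 30 of 51 for rich windows and 38 of 82 for poor ones (46.3%), and for receptor members, with 58 of 83 and 68 of 127 (53.5%). Effector members had 31 of 50 and 39 of 93 (41.9%).

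Silent members with a rich window numbered 107. By theme they were 21 of 51 lineage, 25 of 83 receptor, 19 of 50 effector, 25 of 146 metabolic and 20 of 69 iron genes. A few genes count in more than 1 theme. Of all protein-coding genes with a rich window, 2956 of 10198 were silent, so this state is not particular to the members. To show both exceptions to the general order, 4 windows are printed, a pair from silent genes with a rich window and a pair from expressed NK genes with a poor one. They were chosen after their values were seen. SLC40A1 and IFNGR2 were silent, at 0 and 0 counts and at 0 and 3 counts, behind windows with 38 and 37 CG dinucleotides, that of IFNGR2 being 1 of its listed starts. NKG7 and GZMB were expressed at means of 897 and 231 CPM behind windows with 5 and 1. The sequences are from RefSeq, written 5′ to 3′ on the strand of the gene with each CG in capitals. CG reads the same on both strands, and 93.9% of the 35116 windows held at least 1. DNA methylation was not measured, and a count of CG is a description of the window only.
SLC40A1, chr2:189580787-189581036, minus strand, the iron exporter ferroportin: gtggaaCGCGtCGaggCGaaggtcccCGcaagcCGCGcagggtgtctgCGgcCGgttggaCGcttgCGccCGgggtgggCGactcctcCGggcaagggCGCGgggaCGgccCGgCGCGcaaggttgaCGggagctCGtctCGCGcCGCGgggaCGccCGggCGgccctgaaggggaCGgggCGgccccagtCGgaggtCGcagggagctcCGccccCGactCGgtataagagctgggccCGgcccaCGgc
IFNGR2, chr21:33403163-33403412, plus strand, the interferon gamma receptor 2 chain: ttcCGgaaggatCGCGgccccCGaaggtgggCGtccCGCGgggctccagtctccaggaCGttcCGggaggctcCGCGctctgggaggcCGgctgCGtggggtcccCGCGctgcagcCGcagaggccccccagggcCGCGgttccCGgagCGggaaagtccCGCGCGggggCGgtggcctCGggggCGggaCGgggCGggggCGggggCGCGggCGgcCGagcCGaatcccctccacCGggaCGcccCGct
NKG7, chr19:51372655-51372904, minus strand, a granule membrane protein: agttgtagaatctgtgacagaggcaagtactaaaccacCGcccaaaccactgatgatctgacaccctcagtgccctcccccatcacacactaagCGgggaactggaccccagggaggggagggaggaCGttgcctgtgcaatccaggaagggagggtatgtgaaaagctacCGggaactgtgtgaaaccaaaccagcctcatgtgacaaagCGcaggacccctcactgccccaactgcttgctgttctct
GZMB, chr14:24634191-24634440, minus strand, granzyme B: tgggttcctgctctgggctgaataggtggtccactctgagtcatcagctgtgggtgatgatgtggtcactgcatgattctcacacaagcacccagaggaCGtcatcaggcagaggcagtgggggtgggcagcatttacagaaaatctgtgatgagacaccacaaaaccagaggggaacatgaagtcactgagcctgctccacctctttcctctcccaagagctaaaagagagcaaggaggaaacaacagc

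**Figure D2:**
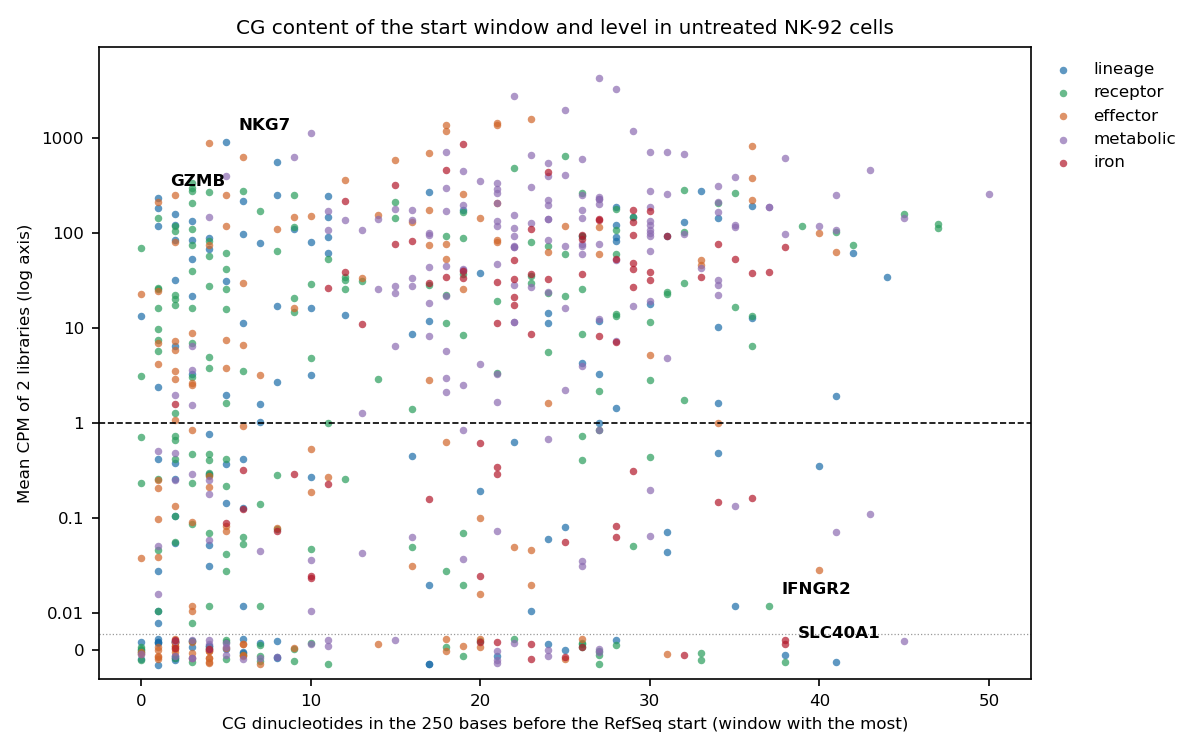
Number of CG dinucleotides in the 250 bases before the RefSeq start (x axis, the window with the most for each gene) against mean CPM of the 2 untreated libraries (y axis, log scale, with genes at 0 counts spread below the dotted line) for list members with a window, coloured by theme. The dashed line is 1 CPM. SLC40A1 and IFNGR2 lie at the lower right with 38 and 37 CG, and NKG7 and GZMB at the upper left with 5 and 1.

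The label of NK cells held against its markers. Of 16 markers of NK cells, 15 were expressed, with a summed level of 2755 and 2725 CPM, and KLRF1, an activating lectin-like receptor, was the exception at 0.0348 and 0.0938 CPM. NKG7, a granule membrane protein of killer lymphocytes (chromosome 19, 51371620 to 51372654, GRCh38.p14), stood at 889 and 904 CPM. NCAM1, which encodes CD56, had 308 and 306 CPM, TBX21, the transcription factor T-bet, 275 and 261 CPM, and its relative EOMES 171 and 173 CPM. Per length NKG7 led the 22 NK identity genes at 2568 TPM, whereas KLRD1 stood at 7.12 TPM, its 49.96 and 50.02 CPM being divided by a canonical transcript of 15563 bases. Nearest to 1 CPM among the expressed markers were CD7, an early lymphoid surface protein, at 2.97 and 2.96 CPM, TYROBP, the adaptor DAP12, at 2.04 and 1.83 CPM, and FCER1G, already named at the threshold. In RNA from a bulk culture, fewer cells with a transcript and less of it per cell cannot be told apart. FCGR3A, the Fc receptor CD16 through which NK cells recognise antibody-coated targets, was silent at 0.397 and 0.344 CPM. So were FCGR2A, FCGR2B, FCGR2C, FCGR3B and FCGR1A, none above 0.430 CPM in either library.

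Genes best known from T cells were split. Of 12 T cell markers 6 were expressed, with a summed level of 622 and 636 CPM, and 4 had no count. Of 29 T cell genes, 13 were expressed (44.8%, against 53.1% of all protein-coding genes) and none of these was under 10 CPM. The other 16 were silent and 6 of them had no count. CD3E, a signalling chain of the T cell receptor complex, had 434 and 436 CPM. CD3D, at 0.0557 and 0.0469 CPM, and CD3G, at 0 and 0, are its neighbours on chromosome 11, all 3 within 50.4 kb (118304730 to 118355161, GRCh38.p14), with gaps of 22781 and 1639 bases between them. CD28, a costimulatory receptor, was expressed at 98.8 and 95.8 CPM and LAT, a scaffold of receptor signalling, at 146 and 146 CPM. The constant regions of T cell receptor genes were at 120 and 127 CPM for TRDC (delta), 36.9 and 46.6 CPM for TRBC2, 18.7 and 21.5 CPM for TRBC1 (both beta) and 16.2 and 16.5 CPM for TRAC (alpha). In TPM these were 380, 122, 58.7 and 37.0. TRGC1 and TRGC2 (gamma) were silent at means of 0.194 and 0.0665 CPM. TRDC, TRAC and the beta genes lie inside the larger TRA, TRD and TRB entries of the same table, and TRBC1 and TRBC2 are near-identical, so their split is uncertain. CD4, CD5 and CD8B had no count, and CD8A had 0 and 0.0391 CPM.

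Markers of other cell types were near 0 with few exceptions. None of the 8 B cell markers was expressed (summed level 0.871 and 1.67 CPM, with MS4A1, CD79B, CD22, BLK and IGKC among those at 0 counts), none of 7 erythroid and megakaryocyte markers (0.195 and 0.367 CPM), none of 10 epithelial, fibroblast and endothelial markers (1.70 and 1.77 CPM) and 1 of 8 myeloid markers, CD68, at 2.42 and 2.34 CPM. In the wider lists, IGHM, the constant region of the immunoglobulin mu heavy chain, was expressed at 47.4 and 44.1 CPM and JCHAIN, the chain that joins secreted immunoglobulin units, at 13.2 and 13.6 CPM, although the immunoglobulin light chain genes IGKC and IGLC2 had no count. CD38, a further gene of the B cell list, had a mean of 21.4 CPM, and ITGAM, of the myeloid list, 6.39 CPM. VIM (vimentin) and PDGFRB were the 2 expressed of 22 non-haematopoietic genes, VIM at a mean of 552 CPM. PDGFRB, a growth factor receptor best known from fibroblasts and pericytes, had 106 and 112 CPM, while PDGFRA, COL1A2 and COL3A1 had no count. EPOR, the erythropoietin receptor, was expressed at 3.06 and 3.33 CPM, with HBB and GATA1 at 0. Among genes of innate lymphoid subsets, 10 of 22 were expressed (45.5%, against 53.1% of all protein-coding genes). GATA3 was at 17.7 and 18.1 CPM, while IL7R, IL1RL1 and IL23R had no count.

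Most lineage transcription factors were on, 41 of 56. MYC had 579 and 533 CPM, ETS1 518 and 522 CPM, IKZF3 478 and 489 CPM and RUNX3 263 and 291 CPM. ID2, a partner-blocking factor needed for innate lymphocytes, had 149 and 141 CPM, TOX 179 and 179 CPM, and PRDM1, which encodes Blimp-1, 63.8 and 57.0 CPM. NFIL3, needed early in NK development in mice, had 34.3 and 33.8 CPM. LEF1, ZBTB16, SPI1, GATA2 and BCL11A had no count, and TCF7, a partner of LEF1 in T cells, was silent at 0.696 and 0.563 CPM. KLF2, which controls lymphocyte circulation, was barely above the threshold at 2.31 and 1.52 CPM.

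The receptors that trigger NK cells differed in level. Among the natural cytotoxicity receptors, NCR3 (NKp30) had 287 and 275 CPM, NCR2 (NKp44) 30.5 and 32.2 CPM and NCR1 (NKp46) 17.8 and 16.1 CPM. On the TPM scale the same 3 stood at 586 ± 20.01, 61.8 ± 2.12 and 32.5 ± 2.37 (SD, n = 2), and NCR3 overlaps LST1, also expressed, so part of its reads may be shared. Of the adaptors that carry their signals, CD247 (the zeta chain) had 130 and 138 CPM and HCST (DAP10) 41.6 and 38.2 CPM. In TPM these were 185 and 157, against 7.46 for TYROBP (DAP12) and 3.79 for FCER1G. Downstream, ZAP70 had 243 and 238 CPM, LCP2 339 and 331 CPM, VAV1 174 and 163 CPM and SYK 28.0 and 31.0 CPM. PTPN11 (SHP-2) and INPP5D (SHIP1), phosphatases of inhibitory receptors, had 261 and 251 CPM and 253 and 243 CPM, while PTPN6 (SHP-1) had 5.27 and 4.22 CPM. In all, 23 of 30 genes of this list were expressed.

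Lectin-like receptor genes lie together on chromosome 12. Of 22 genes described there over 1650 kb, 12 were expressed and 10 silent. The genes from KLRD1 to KLRC1 were expressed throughout, and those from CLEC12A to OLR1 had means under 1 CPM throughout. In that second run CLEC7A and CLEC12A lay near the threshold, at 1.20 and 0.742 CPM and at 0.676 and 0.735 CPM. KLRC1, which encodes the inhibitory receptor chain NKG2A, had 159 and 155 CPM, and KLRD1, its partner CD94, 49.96 and 50.02 CPM. Further members of the same block were KLRC2 (NKG2C) at 12.8 and 11.8 CPM, KLRC3 at 5.15 and 6.10 CPM, KLRC4 at 3.24 and 2.93 CPM and KLRK1 (NKG2D) at 19.0 and 17.6 CPM. In TPM, KLRC1 stood at 243 and these 4 at 22.0, 12.2, 7.37 and 25.7. KLRC1 to KLRC3 are close copies and KLRC4 and KLRK1 share a readthrough transcript, so the counting may have moved reads between them. KLRB1, which encodes CD161, had no count, and neither had CLEC1A, CLEC1B, CLEC9A and OLR1. KLRF2 was expressed at 9.85 and 9.31 CPM, while its relative KLRF1 was silent, as named above.

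In the leukocyte receptor region of chromosome 19, 9 of 21 genes were expressed over 722 kb. KIR2DL4, a killer immunoglobulin-like receptor that binds HLA-G, had 65.4 and 63.0 CPM. KIR2DL1 and KIR3DL2 had no count, and KIR2DL3, KIR3DL3 and KIR2DS4 did not pass 0.0938 CPM in either library. KIR3DL1, next to KIR2DL4 at a distance of 1951 bases, stood at the threshold. KIR3DX1 had 66.7 and 56.6 CPM and LILRB1, an inhibitory receptor for class I MHC, 65.3 and 57.7 CPM. LAIR1, an inhibitory collagen receptor, had no count, whereas the gene for its soluble relative LAIR2 had 4.79 and 4.44 CPM. These genes are alike in sequence, and the reference carries only some haplotypes of the region, so low values here are uncertain.

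**Figure D3:**
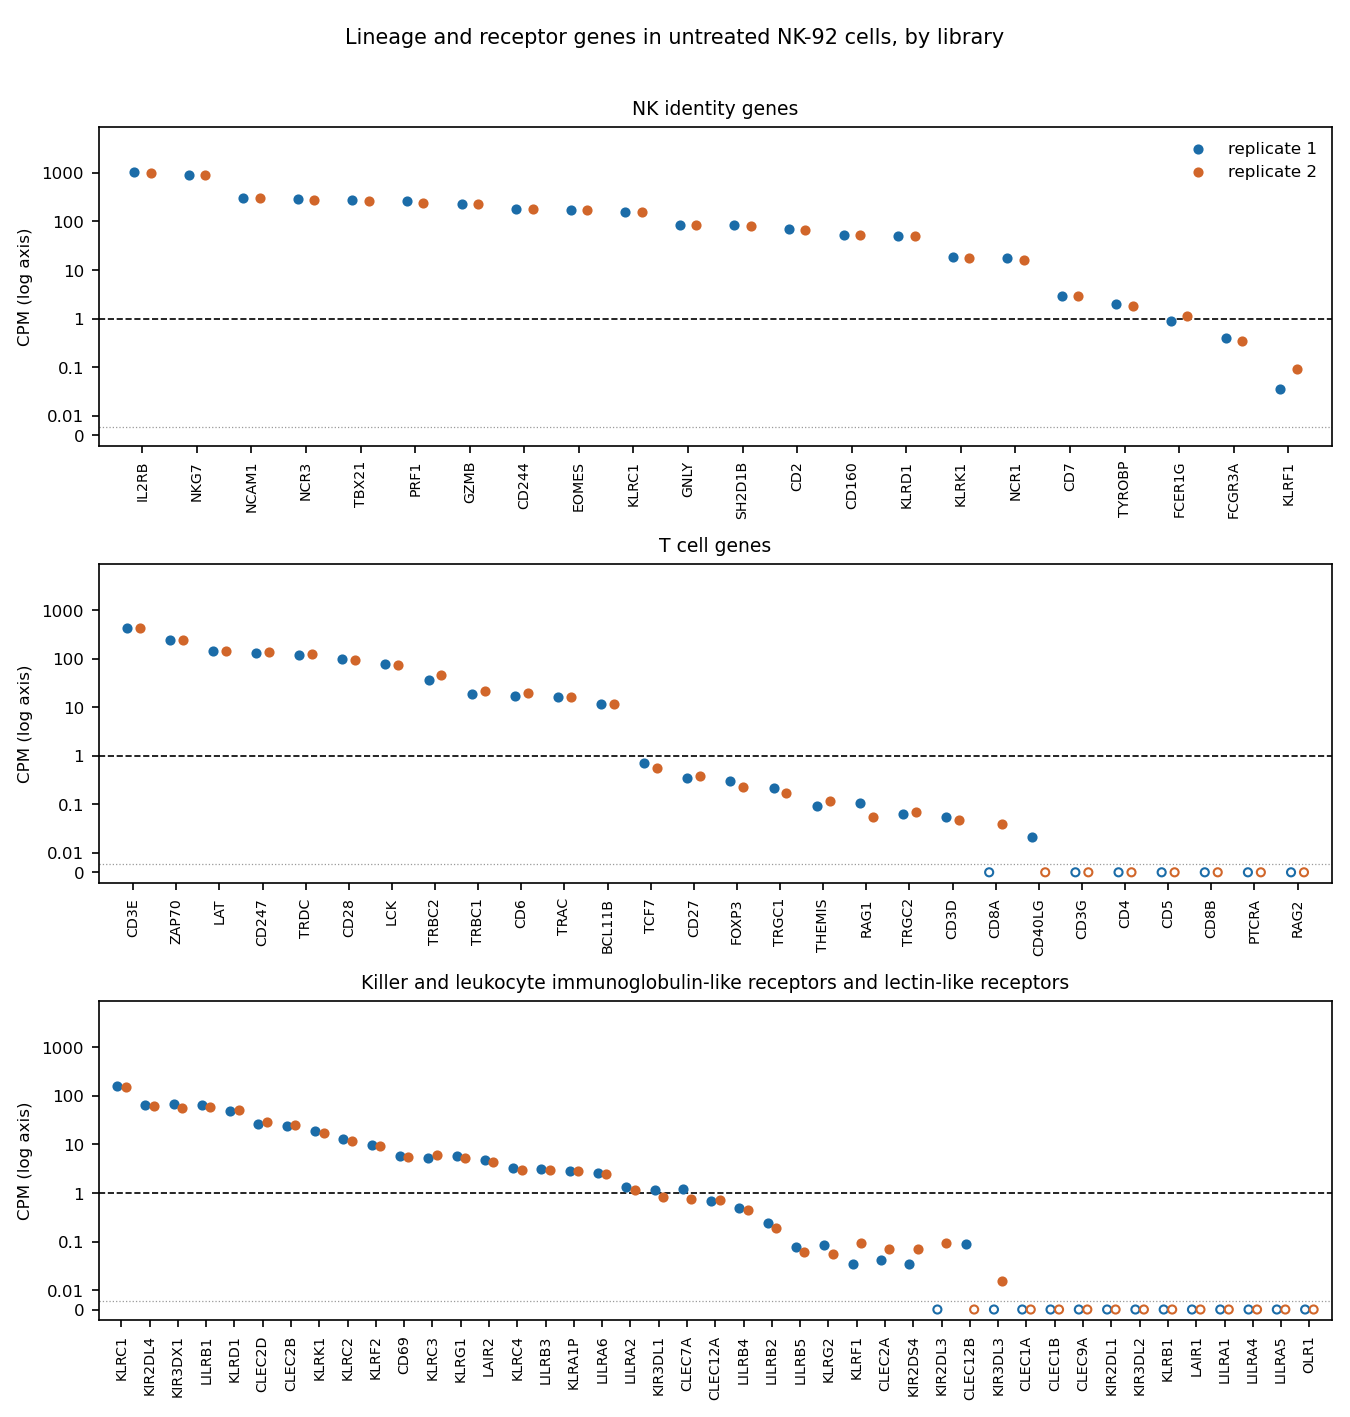
CPM (log axis) in both untreated libraries of NK identity genes, T cell genes and immunoglobulin-like and lectin-like receptors, ordered by mean. Open circles below the dotted line are 0 counts, and the dashed line is 1 CPM. Replicate 1 and replicate 2 lie close together for expressed genes. CD3E heads the T cell panel at 434 and 436 CPM, and CD3G, CD4, CD5 and CD8B are at 0.

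Further surface receptors followed the family. Among SLAM family receptors, which lymphocytes use to recognise each other, 7 of 9 were expressed, among them CD48 at 263 and 270 CPM, SLAMF7 at 248 and 241 CPM and CD244 at 183 and 181 CPM, with their adaptors SH2D1A at 206 and 206 CPM and SH2D1B at 84.9 and 81.7 CPM. Of 24 checkpoint and nectin-binding receptors 13 were expressed (54.2%, close to the 53.1% of all protein-coding genes). CD96 had 276 and 274 CPM and TIGIT, an inhibitory receptor for the same nectin-like ligands, 41.8 and 41.3 CPM, while the activating CD226 (DNAM-1) had 1.59 and 1.59 CPM. PDCD1, which encodes PD-1, was silent at 0 and 0.0234 CPM, and CTLA4 at 0.481 and 0.461 CPM. HAVCR2 (TIM-3) and LAG3 were expressed at 9.88 and 7.60 CPM and at 8.36 and 6.71 CPM. Adhesion molecules were mostly on (24 of 32), with the integrin chains ITGA4 at 661 and 623 CPM, ITGAL at 382 and 350 CPM and ITGB2 at 360 and 349 CPM. B3GAT1, the enzyme that makes the CD57 epitope of mature NK cells, had no count.

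The interleukin 2 receptor chains were uneven. IL2RB, the beta chain shared with the interleukin 15 receptor, had 1053 and 1015 CPM (568 ± 17.5 TPM, SD, n = 2), IL2RG, the common gamma chain, 278 and 278 CPM (416 ± 1.47 TPM), and IL2RA, the alpha chain that raises affinity, 16.1 and 15.8 CPM (11.0 ± 0.223 TPM). IL12RB2 had 210 and 203 CPM with its partner IL12RB1 at 33.5 and 34.0 CPM, and IL21R had 71.1 and 65.6 CPM. For interleukin 18, IL18R1 was expressed at 3.67 and 3.03 CPM and IL18RAP was silent at 0.676 and 0.649 CPM. A similar split was seen in the receptor for interferon gamma, where IFNGR1 had 23.1 and 23.2 CPM and IFNGR2 0 and 0.0234 CPM. Both chains of the type I interferon receptor were expressed, IFNAR1 at 34.2 and 35.1 CPM and IFNAR2 at 55.7 and 54.1 CPM. In all, 27 of 42 interleukin and growth factor receptors were expressed, and IL7R, IL6R, IL1RAP and FLT3 were among 8 with no count.

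Signalling below these receptors was almost complete, with 22 of 24 JAK, STAT and SOCS genes expressed. JAK1 had 260 and 265 CPM and JAK3, which pairs with the common gamma chain, 27.9 and 29.1 CPM. STAT5A and STAT5B, which overlap on chromosome 17 and may share reads, had 147 and 141 CPM and 114 and 112 CPM. CISH, a feedback inhibitor induced by STAT5, had 254 and 266 CPM, and the kinase PIM1, another STAT5 target, 277 and 290 CPM. SOCS3 was silent at 0.446 and 0.422 CPM and SOCS6 had no count.

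Among chemokine and lysophospholipid receptors 16 of 35 were expressed (45.7%, against 53.1% of all protein-coding genes). CXCR3, which guides lymphocytes into inflamed tissue, had 143 and 145 CPM, CCR1 108 and 99.8 CPM and CXCR4 68.4 and 75.2 CPM. CX3CR1 and CXCR1, receptors of mature blood NK cells, were silent at 0.286 and 0.524 CPM and at 0.265 and 0.25 CPM, and S1PR5, used by NK cells to leave tissue, had no count. PTGER2 and ADORA2A, receptors for prostaglandin E2 and adenosine that dampen killing, had 109 and 103 CPM and 41.3 and 33.3 CPM. Of 20 TNF receptor family genes 8 were expressed, with TNFRSF1B at 483 and 465 CPM and TNFRSF8, which encodes the lymphoma marker CD30, at 117 and 113 CPM. LTBR, CD40 and TNFRSF18 had no count. Of 25 pattern recognition genes 14 were expressed (56.0%, again close to the share of all protein-coding genes). Among cytosolic sensors, CGAS (35.7 and 38.0 CPM), IFIH1 (26.4 and 25.0 CPM) and AIM2 (20.7 and 19.4 CPM) were expressed, whereas NLRC4 (0.327 and 0.5001 CPM) and NOD2 (0.0209 and 0.0625 CPM) were silent and NLRP3 had no count. TLR2, TLR4, TLR5, TLR7 and TLR8 had no count either. TLR3, TLR6 and TLR1 were the expressed Toll-like receptors of the list, at means of 6.91, 3.81 and 1.69 CPM.

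The killing machinery was on nearly throughout. Of 21 granule proteins 18 were expressed, and none of those was under 10 CPM. PRF1, the pore former perforin, had 259 and 243 CPM. The 5 granzymes, serine proteases delivered through that pore, were at 229 and 233 CPM for GZMB, 211 and 211 CPM for GZMA, 138 and 138 CPM for GZMM, 85.2 and 87.0 CPM for GZMK and 24.2 and 20.6 CPM for GZMH. Per length of the canonical transcript the order was the same, at 574, 522, 331, 127 and 53.0 TPM. GZMA passed GZMB when all annotated exons of each gene were used as its length (938 against 652 TPM), so the order of these neighbours depends on the transcript and the lower 3 kept theirs. GNLY, which encodes the membrane-damaging granulysin, had 84.2 and 84.9 CPM, and the cathepsin CTSC, which activates granzymes, 1427 and 1429 CPM. SERPINB9, which shields killers from their own granzyme B, had 115 and 116 CPM. FGFBP2, a marker of mature CD16-positive NK cells, was silent at 0.0836 and 0.0781 CPM and CTSL had no count.

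All 19 genes of granule transport and fusion were expressed, none under 10 CPM. RAB27A, the small GTPase that docks granules, had 172 and 175 CPM, and UNC13D (Munc13-4), which primes them for fusion, 34.6 and 35.4 CPM. STX11 and its partner STXBP2, both mutated in inherited failure of granule release, had 52.9 and 49.6 CPM and 59.7 and 60.7 CPM. Of the actin regulators of the synapse, CORO1A had 1555 and 1564 CPM and WAS 143 and 139 CPM.

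Of 17 death ligands and TNF family ligands 8 were expressed (47.1%), close to the share of all protein-coding genes. FASLG, the ligand of the death receptor FAS, had 79.0 and 79.2 CPM, while TNFSF10 (TRAIL) had 3.59 and 3.47 CPM and TNF was silent at 0.543 and 0.508 CPM. TNFSF14 (LIGHT) had 149 and 146 CPM, LTB 126 and 117 CPM and LTA 99.4 and 80.2 CPM. LTBR, 1 of their receptors, had no count, as given above. In the same receptor family TNFRSF14 and TNFRSF1A were expressed at means of 14.7 and 56.3 CPM, as was TNFRSF1B.

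Chemokine transcripts came from few genes, 8 of 44. CCL3 had 985 and 767 CPM, CCL5 629 and 646 CPM and CCL4 147 and 92.9 CPM, all chemokines that draw further leukocytes. XCL1 and XCL2, which attract dendritic cells, had 60.3 and 49.7 CPM and 79.0 and 68.7 CPM. CCL3L3 (31.3 and 17.4 CPM) and CCL4L2 (9.83 and 3.88 CPM) are near-identical copies of CCL3 and CCL4, as XCL2 is of XCL1, so the division of reads within each pair is uncertain. On chromosome 17 the run from CCL2 to CCL1, 6 genes, had no count in either library, while 6 of the other 9 CC chemokine genes described there were expressed. Among 29 chemokines with no count were CXCL8, CXCL9, CCL2 and CCL20, and CXCL10 had 0.0209 and 0 CPM.

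Cytokine genes were mostly off, 11 of 47 expressed. IL32 had 628 and 629 CPM, CSF1, a macrophage growth factor, 244 and 275 CPM, and TGFB1 212 and 201 CPM. IFNG, the signature cytokine of NK cells, was at 8.32 and 6.02 CPM and IL10 at 6.48 and 5.26 CPM. CSF2 and IL3, neighbours on chromosome 5, had no count, nor had IL4 in the same region, and IL5 and IL13 there were silent at means of 0.0430 and 0.0439 CPM. IL2, the growth factor of these cells, had no count in either library.

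**Figure D4:**
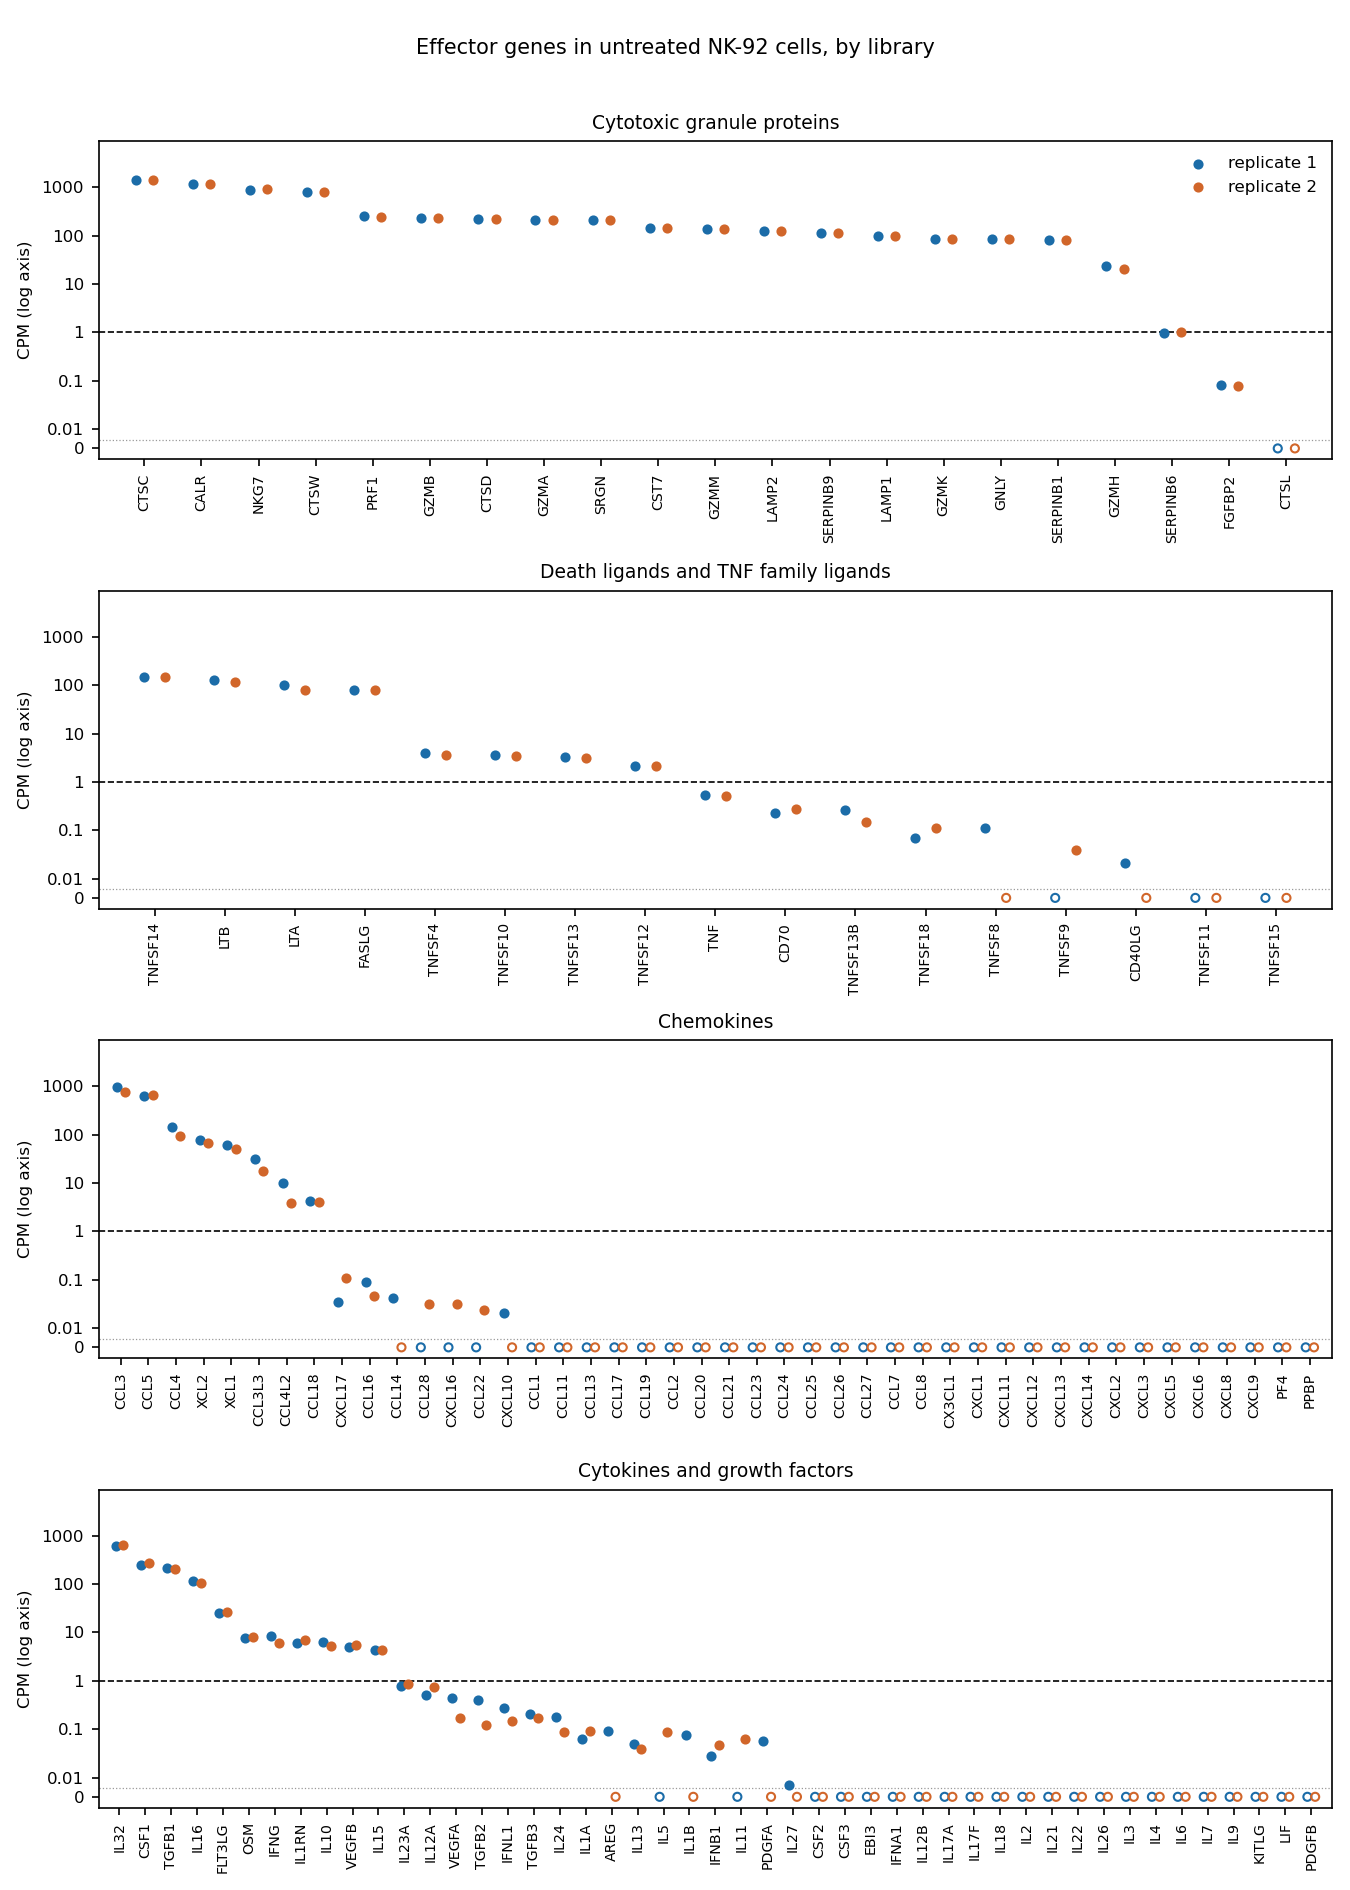
CPM (log axis) in both untreated libraries of granule proteins, TNF family ligands, chemokines and cytokines, ordered by mean. Open circles below the dotted line are 0 counts, and the dashed line is 1 CPM. Granule proteins form a plateau down to GZMH at 24.2 and 20.6 CPM, whereas chemokines drop from CCL18, at 4.26 and 4.04 CPM, to values under 0.2 CPM with none between. Replicate 1 lies above replicate 2 for CCL3, CCL4, XCL1, XCL2, CCL3L3, CCL4L2 and IFNG.

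Antigen presentation by class I was on, 19 of 24 genes. Of 16 class II genes 10 were expressed (62.5%, against 53.1% of all protein-coding genes), none of them at 100 CPM or more. B2M, the light chain of class I, had 1330 and 1372 CPM, HLA-B 682 and 694 CPM, HLA-C 571 and 591 CPM and HLA-E, the ligand of CD94/NKG2A, 270 and 258 CPM. HLA-G had no count. HLA genes share sequence, so the division among them is uncertain. CIITA, the master regulator of class II genes, was expressed at 69.1 and 65.5 CPM (9.29 TPM). It overlaps DEXI, also expressed, so part of its reads may be shared. HLA-DRA, a class II chain that CIITA controls, had no count, and CD74, the invariant chain, was at 3.27 and 2.53 CPM. No class II MHC chain of the list passed 10 CPM.

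Several glycolysis genes were near the top of the whole profile. ENO1 (enolase) had 4216 and 4260 CPM, PKM (pyruvate kinase) 3243 and 3234 CPM, GAPDH 2737 and 2768 CPM and LDHA (lactate dehydrogenase A) 1970 and 1969 CPM. By TPM over canonical transcripts they ranked 9, 25, 12 and 62 of all genes. In TPM, LDHA stood at 1948 ± 10.0 and LDHB, the heart-type chain, at 1055 ± 9.07 (SD, n = 2). Forms known mainly from single tissues differed. The testis form PGK2 and the liver and red cell pyruvate kinase PKLR had no count, while the testis form LDHC had 8.50 and 8.01 CPM, the sperm form GAPDHS 6.37 and 6.49 CPM, the muscle forms ENO3 5.58 and 5.86 CPM and PFKM 4.29 and 3.53 CPM, and the brain form ALDOC 2.10 and 2.06 CPM. HK1 had 279 and 275 CPM and HK2 171 and 155 CPM. Of 32 glycolysis genes 23 were expressed, and the list took 1.77% of the counts in each library.

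Of the glucose transporters, SLC2A1 (GLUT1) and SLC2A3 (GLUT3) were expressed at 83.6 and 85.8 CPM and at 78.9 and 75.5 CPM. The insulin-responsive GLUT4 gene SLC2A4 had no count. SLC16A1, the lactate carrier MCT1, had 283 and 272 CPM with its chaperone BSG at 251 and 254 CPM, and SLC16A3, the carrier MCT4 of highly glycolytic cells, was silent at 0.0209 and 0.195 CPM. TKT (transketolase), of the pentose phosphate pathway, had 544 and 540 CPM. PC (pyruvate carboxylase), G6PC1 and PCK1, enzymes of glucose synthesis, had no count, and FBP1 was silent at 0 and 0.0625 CPM.

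Of 34 genes of pyruvate entry and the TCA cycle 31 were expressed, and the silent ones were PDHA2 and OGDHL, with no count, and PDK4, a starvation-induced kinase, at 0.0418 and 0.0313 CPM. Among paired respiratory chain isoforms, COX4I1, COX6A1, COX7A2 and COX8A were each expressed (means of 98.9 to 309 CPM), while their counterparts COX4I2 and COX8C had no count and COX6A2 and COX7A1 were silent at means of 0.50 and 0.0174 CPM. The ADP/ATP carriers SLC25A5 and SLC25A6 had 690 and 707 CPM and 378 and 393 CPM, with the muscle form SLC25A4 silent at 0.871 and 0.820 CPM. CPT1A, which admits long fatty acids to mitochondria in most tissues, was silent at 0.0348 and 0.0547 CPM. CPT1B, its muscle form, had 20.1 and 16.5 CPM, but it shares a readthrough transcript with CHKB, so its own level is uncertain.

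Some genes of amino acid synthesis were silent. PHGDH, the entry enzyme of serine synthesis, and ASS1, needed to make arginine, had no count, and ASNS (asparagine synthetase) was silent at 0.627 and 0.735 CPM. PSAT1 and PSPH, the next enzymes of serine synthesis, were expressed at 63.5 and 65.8 CPM and at 18.8 and 19.9 CPM, and SHMT2, which uses serine in mitochondria, at 281 and 284 CPM. Importers included SLC7A1, for arginine and lysine, at 462 and 459 CPM, SLC38A1 at 451 and 443 CPM, SLC1A5 at 396 and 393 CPM and SLC7A5, for large neutral amino acids, at 212 and 212 CPM with its partner SLC3A2 at 235 and 245 CPM. Of 52 genes of amino acid uptake and use, 31 were expressed (59.6%, against 53.1% of all protein-coding genes). Sterol and fatty acid synthesis had 33 of 45, with FASN (fatty acid synthase) at 732 and 709 CPM, SCD, which makes monounsaturated fatty acids, at 655 and 661 CPM. SREBF2, the sterol regulator, had 217 and 222 CPM and SREBF1 11.8 and 11.2 CPM.

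Of 22 genes listed for iron uptake and reduction 6 were expressed (27.3%, against 53.1% of all protein-coding genes). This counts listed genes and does not measure uptake. CD44, 1 of the 6, had 210 and 213 CPM. TFRC, transferrin receptor 1 (chromosome 3, 196049284 to 196082090, GRCh38.p14), had 177 and 165 CPM, and TFR2, the second transferrin receptor, known mainly from liver and red cell precursors, 20.3 and 17.6 CPM. In TPM TFRC stood at 75.7 ± 4.13 and TFR2 at 14.6 ± 1.48 (SD, n = 2). SLC39A14 and SLC39A8, transporters of zinc and of iron not bound to transferrin, had 184 and 174 CPM and 110 and 106 CPM. SLC11A2 (DMT1), which moves iron out of endosomes, had 31.2 and 29.9 CPM. All 4 STEAP genes of the list, a family of metalloreductases, were silent, at 0 counts for STEAP1 and means of 0.292, 0.0556 and 0.226 CPM for STEAP2, STEAP3 and STEAP4. So were CYBRD1, another reductase, at 0.146 and 0.172 CPM, and HFE, a partner of transferrin receptor 1, at 0.0766 and 0.172 CPM.

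Of 24 genes of storage, chaperones and export 11 were expressed (45.8%, against 53.1% of all protein-coding genes). The ferritin chains FTL and FTH1 had 449 and 460 CPM and 312 and 317 CPM, which in TPM were 1156 ± 13.96 and 579 ± 4.08 (SD, n = 2). The iron chaperones PCBP1 and PCBP2 had 316 and 316 CPM and 433 and 431 CPM, and NCOA4, which delivers ferritin for breakdown, 212 and 215 CPM. SLC40A1, the only known iron exporter of mammalian cells, had no count in either library, so its level is described only by the floor given above. Other genes listed for export differed. FLVCR1, a haem exporter, was expressed at 41.6 and 40.3 CPM. HEPH, a ferroxidase that works with ferroportin, lay near the threshold at 1.46 and 1.66 CPM (0.780 TPM). CP, which encodes the ferroxidase ceruloplasmin, was silent at a mean of 0.0782 CPM. FLVCR2, HEPHL1 and PROM2 were silent too, at means of 0.608, 0.317 and 0.0870 CPM, and ABCG2 had no count. HMOX1, the inducible enzyme that frees iron from haem, was silent at 0.0209 and 0 CPM, while the constitutive HMOX2 had 97.3 and 93.5 CPM. BLVRA and BLVRB, reductases of the bile pigment made by these enzymes, were silent, with no count for BLVRA and 0.460 and 0.227 CPM for BLVRB.

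Of the sensors, IREB2 (iron regulatory protein 2) had 170 and 166 CPM and ACO1 (iron regulatory protein 1) 7.15 and 7.08 CPM, at 59.0 and 2.12 TPM. FBXL5, which marks iron regulatory protein 2 for degradation when iron is present, had 52.3 and 53.7 CPM. HIF1A, a transcription factor held down by iron-dependent hydroxylases, had 95.1 and 92.3 CPM, and its relatives EPAS1 and HIF3A had no count. The hydroxylases EGLN1 and EGLN2 were expressed at 37.0 and 37.5 CPM and at 67.8 and 74.3 CPM, and EGLN3 had no count. HAMP, the hormone hepcidin of liver, was silent at 0.0488 and 0 CPM. Genes of iron use were on almost throughout, with 35 of 37 genes of mitochondrial iron, haem and iron-sulfur clusters expressed. ALAS1, the housekeeping form of the entry enzyme of haem synthesis, had 50.9 and 50.9 CPM and ALAS2, its red cell form, no count. BOLA1 was the other silent gene of the list, at 0.0418 and 0.102 CPM.

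**Figure D5:**
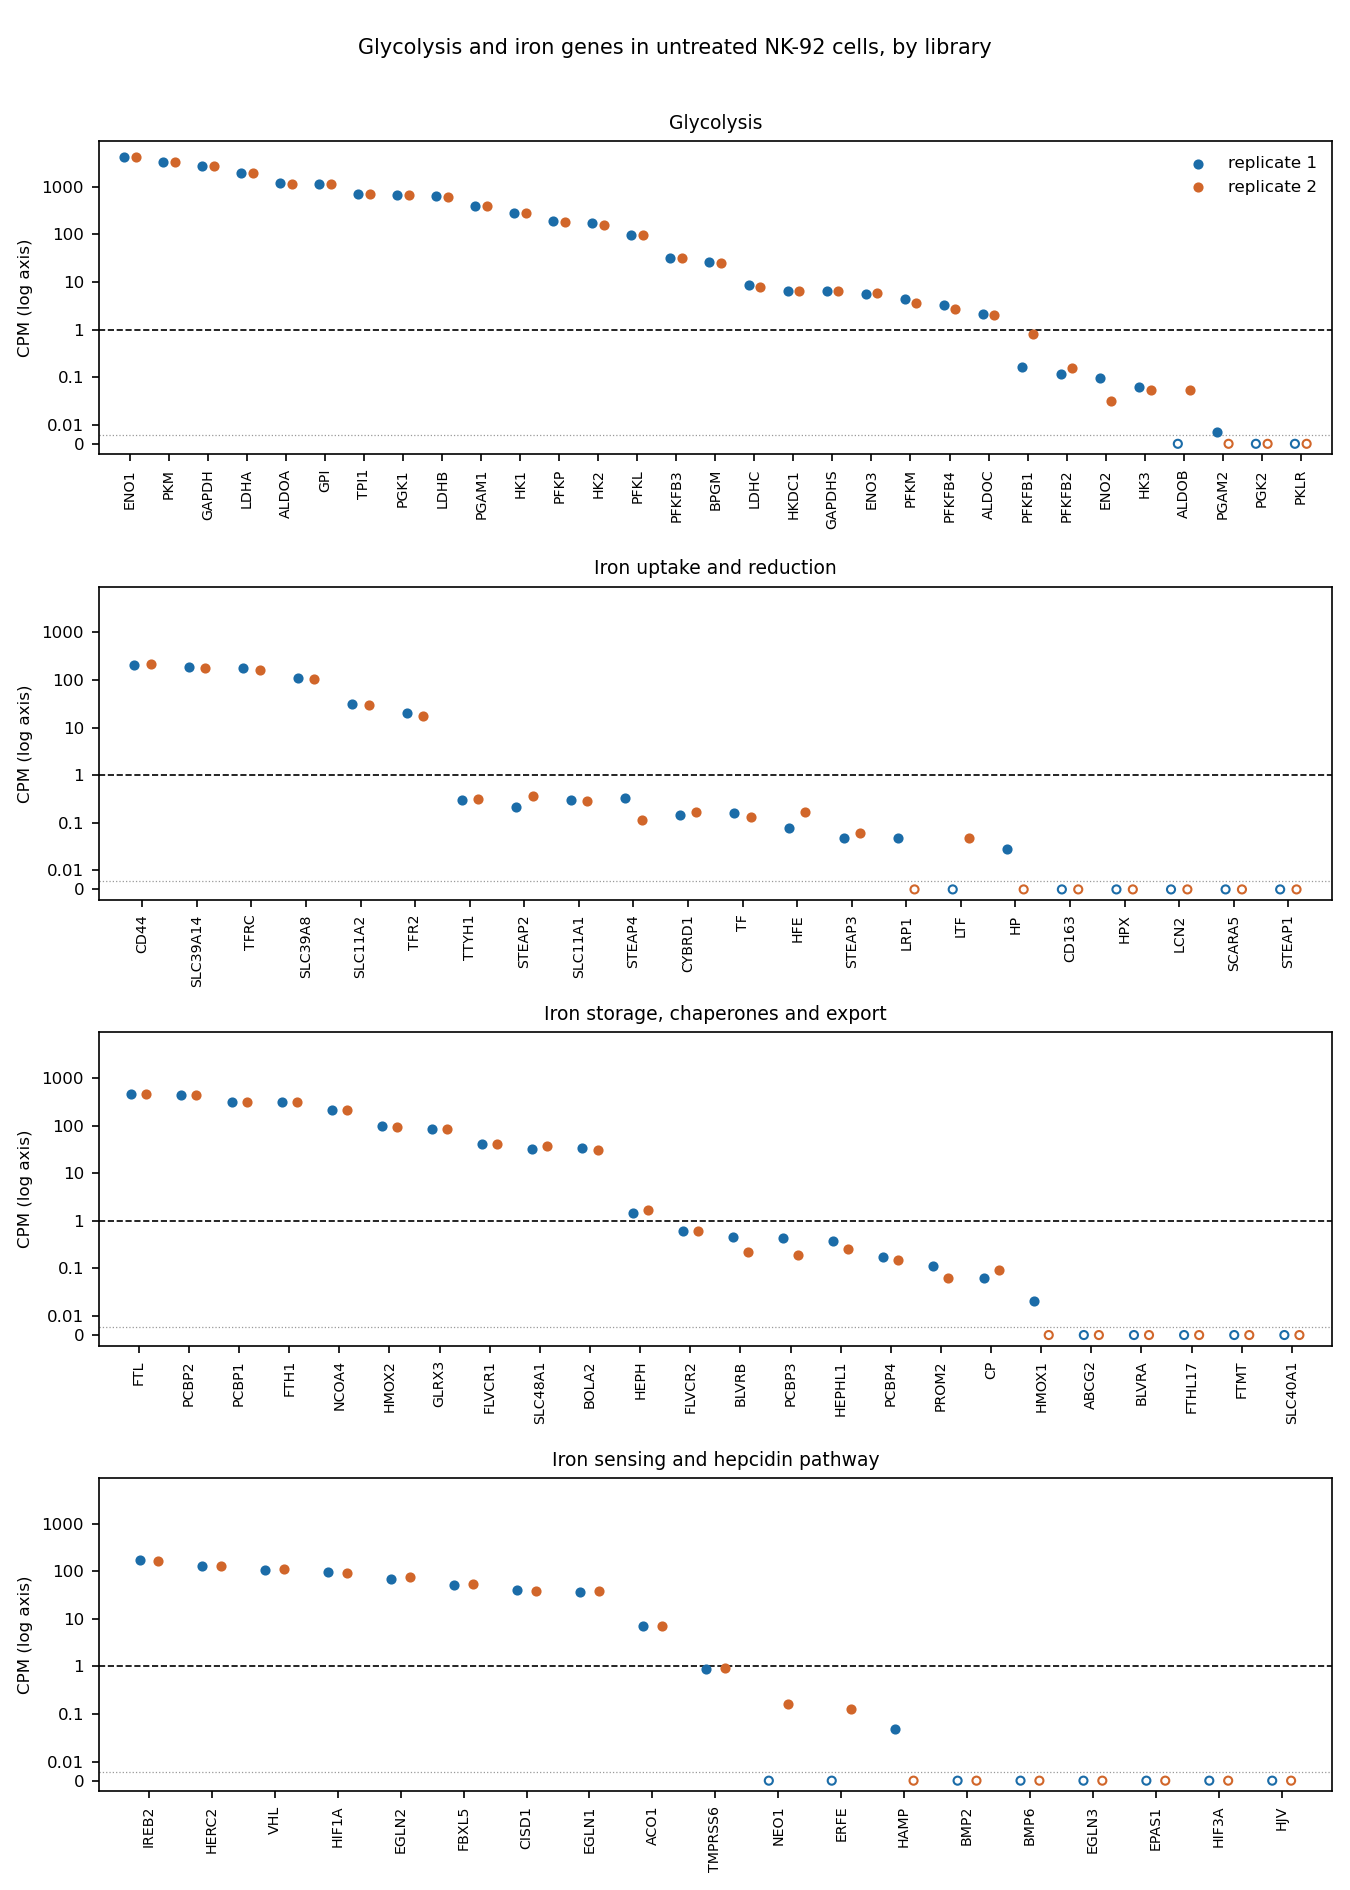
CPM (log axis) in both untreated libraries of genes of glycolysis, iron uptake, iron storage and export, and iron sensing, ordered by mean. Open circles below the dotted line are 0 counts, and the dashed line is 1 CPM. In the uptake panel values drop from TFR2, at 20.3 and 17.6 CPM, to genes under 0.4 CPM with none between, and SLC40A1 is at 0 in the storage and export panel.

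The 2 libraries were close for most members. Of 542 expressed members, 419 differed by less than 0.1 in log2(CPM + 0.5). The share of all expressed symbols within that band was not computed, so the members are not said to agree better than other genes. Over all 12501 expressed symbols the SD of the difference was 0.173, and over those at 100 CPM or more it was 0.0671. Among the members only CCL4L2 differed by 2-fold or more, and 54 of all expressed symbols did (0.432%). Members at 10 CPM or more that differed by more than 0.25 on that scale were 9. LTA, ID3, ADORA2A, CCL3, CCL3L3, CCL4, XCL1 and CPT1B were higher in replicate 1, and TRBC2 was higher in replicate 2. IFNG, HAVCR2 and LAG3, all under 10 CPM, were also higher in replicate 1. Over all genes at 10 CPM or more, 14 differed by 2-fold or more, each of them overlapping another expressed gene, such as RBFOX2 (39.5 and 0.531 CPM) and RPL41P3 within it (0.662 and 39.5 CPM), and ZBED6 (30.9 and 145 CPM) and its host ZC3H11A (168 and 52.6 CPM). With 1 library against 1, no difference between them could be tested.

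The state of a member at 0 h held across the study for nearly all. Of the 542 expressed, 536 had group means of 1 CPM or more in all 5 groups, and of the 419 silent, 412 were under 1 CPM in all. The 13 others were FCER1G, GP1BA, KIT, ZNF683, KIR3DL1 and HLA-DPB1 among the expressed, and PAX5, PECAM1, CLEC7A, CD82, S1PR2, SERPINB6 and CD80 among the silent. Most of them stayed near the threshold throughout. ZNF683, which encodes the tissue residency factor Hobit, had group means of 3.28 CPM in untreated cells, 4.34 and 4.26 at 6 h with DFO and with PPMX-T003, and 0.582 and 0.618 at 24 h with DFO and with PPMX-T003. PAX5 had means of 0.985, 1.71, 1.57, 0.165 and 0.258 CPM in the same groups, with 0.578 and 1.39 CPM in the single untreated libraries. PECAM1, an adhesion molecule of endothelium and leukocytes, had 0.905, 1.19, 0.792, 1.38 and 2.52 CPM. No difference between groups was computed or tested. The same shares over all symbols were not computed either, so the 536 and the 412 are not read as particular to the members.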

How the data were processed

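Estimated counts per gene were deposited by the authors. Per the submitters' processing notes and the series' design text, reads went through fastp 0.21.0, HISAT2 2.2.1 and StringTie 2.1.6 on hg38. The values are whole numbers and were not rounded. Whether the counting used strand is not stated in these sources. All 10 sample columns matched labels, and 0 were left unused.

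CPM was computed within each library, and TPM over canonical transcript lengths of GENCODE release 44 (39573 symbols, holding 99.1% and 99.2% of counts). Symbols were matched to RefSeq (52020 of 54628). Each value is 1 library's, and no test was made. In each list the 6 highest expressed members, the 4 expressed ones nearest 1 CPM and up to 12 silent ones could be named. Genes named beyond that rule were chosen after their values were seen. Some genes of the lists enter the counts but are not reported here by name, in text or figures. Members and lists were chosen with earlier results of these data known.

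Tools were Python 3.11.15, pandas 2.3.3, numpy 2.4.6, matplotlib 3.10.9, R 4.3.3, edgeR 4.0.16 (TMM factors) and DESeq2 1.42.0 (size factors). Alternatives were other scalings, thresholds of 0.5 and 2 CPM, levels per length, both libraries required and each library left out, and, chosen after seeing the data, stricter rules for CpG-rich windows.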

Additional observations from a re-analysis of the deposited data

How the results depend on the processing

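The count of 12501 expressed symbols was 12503 with TMM and 12497 with DESeq2 size factors, 13922 and 11289 at thresholds of 0.5 and 2 CPM, 12312 with 1 CPM required in both libraries and 12497 to 12502 with 1 library left out. Small lists moved most. B cell genes had 5 expressed members at 0.5 CPM instead of 3, and non-haematopoietic genes 4 instead of 2. Erythroid and megakaryocyte genes had 1 instead of 2 at 2 CPM, 1 with both libraries required, and 1 to 2 with 1 library left out, since GP1BA lay under 1 CPM in replicate 1. Symbols that differed by 2-fold or more between the libraries numbered 54, 14 at 10 CPM or more and 6233 with no minimum, where single counts decide. The 107 silent members with a CpG-rich window became 79 when every listed window had to be rich and 72 under a stricter definition, both chosen after seeing the data. No paired analysis was possible because the results come from no test. With 2 libraries, levels carry the spread between these libraries alone, and a left-out library moved a level by up to 43.4%, with a median of 1.60%. The scalings moved levels by at most 0.166%. Depth leaves levels under about 0.0209 and 0.0234 CPM unresolved.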
